A study of Homo sapiens with 4 samples.

Results

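The FOS and JUN family encodes basic leucine zipper proteins that pair to form the transcription factor AP-1, and it is counted here with its close relatives ATF3, BATF and BATF3. Peaks of APC chromatin immunoprecipitation sequencing (ChIP-seq) were taken for FOS, FOSB, FOSL1, FOSL2, JUN, JUNB, JUND, ATF3, BATF and BATF3 wherever the deposited annotation gave the peak 1 of these 10 gene names. The 10 genes belong to a background of 19101 protein-coding genes. They held 9 of 6263 peaks in replicate 1 and 8 of 8393 peaks in replicate 2.

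All samples came from HCT-116, an established human colon carcinoma cell line with wild-type APC and CTNNB1ΔSer45, a β-catenin that resists degradation and keeps canonical WNT signaling switched on. Chromatin was precipitated in 2 biological replicates with a polyclonal antibody against the C terminus of APC, and 2 pre-cleared inputs served as controls for these replicates. According to the study, preparation of the replicates was separated by months, and an effect of date cannot be told apart from one of replicate. The authors called peaks in each library against its matching input and set the threshold so that AXIN2, DKK1 and MYC kept their peaks. Only peak positions and widths were analysed here, with no read counts, enrichment values or input values, and the sequencing depth of each library is therefore unknown. The column named as a score equaled the width of the peak in all 6263 and all 8393 rows. Cells without APC and other antibodies were not analysed here, so the lists show where peaks were called with this antibody in 1 cell line.

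FOS proteins cannot pair with each other and bind DNA as dimers with JUN proteins, whereas JUN proteins can also pair among themselves. FOS, FOSB, JUN, JUNB and ATF3 are immediate early genes that cells transcribe within minutes of a growth or stress signal. They are switched on largely through transcription factors that are already present and are activated by MAP kinases. In intestinal epithelium, JUN is known both as a partner of the β-catenin and TCF7L2 complex and as a target of WNT signaling. APC itself is best known for marking β-catenin for degradation in the cytoplasm.

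APC peaks were assigned to 6 of the 10 genes in each replicate, and the same 6 genes, FOS, FOSB, FOSL1, FOSL2, JUNB and ATF3, were found in both. Among all protein-coding genes, 17.1% had a replicate 1 peak, 20.6% had a replicate 2 peak and 11.9% had a peak in both. A peak was called shared when its centre lay under 400 bp from a centre in the other replicate, and by this rule FOS, FOSB and JUNB had shared regions, 3 of 10 genes beside 11.4% of all protein-coding genes. FOSL1, FOSL2 and ATF3 had a peak in each replicate but none at the same place, a combination found in 0.801% of all protein-coding genes. JUN, JUND, BATF and BATF3 had 0 peaks under their own names in either replicate. The counts were set beside the share over all genes and were not tested, since 1 gene makes up 10% of the list.

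**Figure D1:**
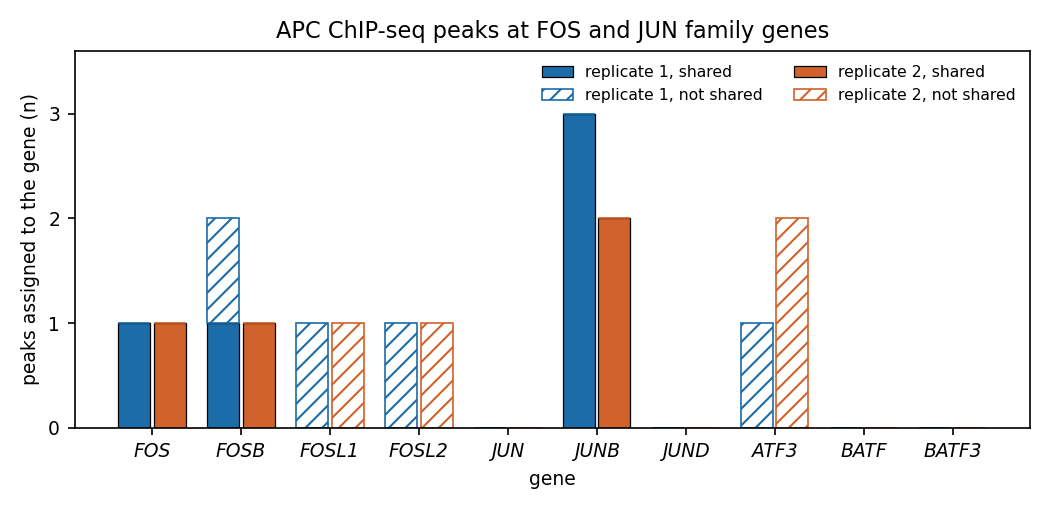
Number of APC ChIP-seq peaks assigned to each of the 10 genes (vertical axis, n), with replicate 1 in blue and replicate 2 in orange. Solid bars are shared peaks, with centres under 400 bp apart, and hatched bars are peaks of 1 replicate. JUNB had the most, with 3 in replicate 1 and 2 in replicate 2, all shared, and 4 genes had none.

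JUNB was the only gene of the family with 3 or more shared regions, counted by replicate 1 peaks, which 0.869% of all protein-coding genes had. Of its 3 shared replicate 1 peaks, an adjacent pair had the same replicate 2 partner, and replicate 2 had 2 shared JUNB peaks. Within 1 kb of a transcription start site (TSS), replicate 1 had peaks at FOS, FOSL1 and JUNB, 3 of 10 genes beside 10.2% of all genes. Replicate 2 had such peaks at FOS, FOSL1, FOSL2 and JUNB, 4 of 10 beside 11.4% of all genes. FOS and JUNB were thus the genes of the family with a shared region at the promoter, and FOSB had its shared region far upstream.

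FOS, the founding member of the FOS group, had 1 peak in each replicate at its promoter. The replicate 1 peak, chr14:75745132-75745309, was 179 bp wide and centred 261 bp upstream of the start of NM_005252. The replicate 2 peak, chr14:75745163-75745646, was 485 bp wide with its centre 77 bp upstream. The centres lay 184 bp apart, and the peaks overlapped by 147 bp. The replicate 1 peak was among the narrow ones of its list, at the 15.89th width percentile, and the replicate 2 peak stood at the 41.83rd. GC content was 65.17% and 64.26%. The nearest protein-coding TSSs to either side were those of TMED10, 102216 bp away, and of JDP2, 148888 bp away, and no other peak lay within 50 kb of the FOS TSS in either replicate.

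The stretch common to both FOS peaks is printed because it holds the CArG box of the serum response element, the sequence through which serum response factor (SRF) is known to switch FOS on. This and the following sequences are the hg19 reference, plus strand, 5′ to 3′, and capitals mark the motif matches.
FOS promoter, chr14:75745163-75745309: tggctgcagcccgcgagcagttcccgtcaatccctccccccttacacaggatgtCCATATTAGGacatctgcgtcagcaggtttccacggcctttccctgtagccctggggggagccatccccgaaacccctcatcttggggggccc
The CArG match CCATATTAGG lay at chr14:75745217-75745226, with its middle 1 bp from the replicate 1 centre and 183 bp from the replicate 2 centre. A CArG match was present in 2.13% of shared peaks in replicate 1 and 3.48% in replicate 2, against 2.91% and 4.2% of equally wide windows placed 5 kb away on both sides. Across the lists CArG matches were therefore no more frequent in shared peaks than beside them. The FOS peaks held 0 AP-1, 0 CRE and 0 TCF7L2 matches.

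FOSB, a FOS relative that is also induced by growth factors, had its shared region 12 kb upstream. The peaks were chr19:45959096-45959524 (430 bp wide, 11943 bp upstream) in replicate 1 and chr19:45958923-45959651 (730 bp wide, 11966 bp upstream) in replicate 2. The centres were 23 bp apart, and the replicate 1 peak lay wholly within that of replicate 2, an overlap of 429 bp. Both were wider than the median peak of their list, at the 61.59th and 78.42nd percentile. The deposited annotation called the region intergenic. GENCODE 44 placed it within ERCC1, a DNA repair gene. The start of an ERCC1 transcript lay 5327 bp from the replicate 1 centre and 5304 bp from the replicate 2 centre. Both distances were shorter than that to FOSB. The region is therefore FOSB's by the deposited assignment and ERCC1's by the nearest start of any protein-coding transcript. This start is not the ERCC1 promoter of the deposited annotation, which lay farther from the region than the FOSB TSS. Replicate 2 alone had a further peak at that promoter, 43535.5 bp from the FOSB TSS and 529 bp wide.

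The 253 bases of the FOSB upstream region between its outer AP-1 matches, with 15 bases to each side, are printed since AP-1 matches were rare in the shared regions of the family. They touch no exon in GENCODE 44.
FOSB upstream region, chr19:45959137-45959389: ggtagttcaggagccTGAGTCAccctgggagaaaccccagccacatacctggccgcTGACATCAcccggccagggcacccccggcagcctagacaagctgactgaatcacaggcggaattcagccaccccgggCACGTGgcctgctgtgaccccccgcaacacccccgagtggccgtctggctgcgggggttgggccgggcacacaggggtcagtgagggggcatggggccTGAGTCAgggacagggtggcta
Capitals mark, in order, an AP-1 match (TGAGTCA), the jun1 element of the JUN promoter (TGACATCA), the E-box of USF (CACGTG) and a second AP-1 match. The AP-1 matches began at 45959152 and 45959368, 155 bp and 61 bp from the replicate 1 centre. A second USF match at 45959489 lay outside the printed stretch but inside both peaks. In all, 9.31% of shared peaks in replicate 1 and 12.8% in replicate 2 held 2 or more AP-1 matches, and 0.226% and 0.471% held 2 or more AP-1 together with 2 or more USF matches. The jun1 element had a match in 2.16% and 3.38% of shared peaks, against 1.81% and 2.8% of the windows beside them.

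FOSB also had a replicate 1 peak in its intron 1 that replicate 2 lacked. It covered chr19:45972592-45972734, 1410 bp downstream of the TSS in a stretch annotated as a CpG island, and at 144 bp it stood at the 5.644th width percentile. It held 0 matches of the 9 motifs searched, and the nearest replicate 2 centre was 13376 bp away.

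FOSL1 (also called FRA1), a FOS relative without a transactivation domain that is abundant in many carcinomas, had a peak in each replicate near its start, but at different places. The replicate 1 peak, chr11:65666912-65667133, was 223 bp wide and lay in intron 1 of NM_001300844, 975 bp downstream of the deposited TSS. The replicate 2 peak, chr11:65667720-65668167, was 449 bp wide and lay on the promoter of NM_001300855, with its centre 54 bp from the TSS. The centres were 921 bp apart and the peaks did not overlap. GC content was 71.17% and 71.65%, so both peaks were in GC-rich sequence. FOSL1 became a gene with a shared region when the limit was set to 1000 bp.

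FOSL2 (also called FRA2), whose protein appears later than FOS after a signal, showed the same arrangement over a longer distance. The replicate 1 peak, chr2:28613148-28613423, was 277 bp wide and 2494 bp upstream of the TSS, in a CpG island in the intron of NR_103831, the noncoding FOSL2-AS1. The replicate 2 peak, chr2:28615468-28615841, was 375 bp wide and lay on the promoter of NM_005253, 125 bp upstream of the TSS. The centres were 2369 bp apart. Replicate 2 had a further peak inside the FOSL2 gene, chr2:28631913-28632622, that carried the name FLJ31356. At 711 bp it was the widest peak within 50 kb of the FOSL2 TSS, its centre 16542.5 bp downstream, with an AP-1 match at 28632332 and a USF match at 28632215. No replicate 1 peak was near it, the closest centre being 18982 bp away. Farther upstream, 2 shared regions with another name had FOSL2 as their nearest protein-coding TSS. By the replicate 1 centres they lay 66.7 kb and 116.4 kb away, with 1 and 2 AP-1 matches in the replicate 1 peaks.

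In both genes the replicate 2 peak spanned the TSS and held 1 AP-1 match there, and the replicate 1 peak held none. The matches are shown with 10 bases to each side.
FOSL1 start site, chr11:65667844-65667870: tgctgggttcTGACTCAcccgcgccgt
FOSL2 start site, chr2:28615719-28615745: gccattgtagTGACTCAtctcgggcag
The middle of the match was 2 bp from the MANE Select TSS of FOSL1 and 7 bp from that of FOSL2, and it overlapped the first exon in both. AP-1 matches were uncommon so near a TSS: of all peaks up to 1 kb from a TSS, 5.32% in replicate 1 and 7.47% in replicate 2 had one, against 37.1% and 42.8% of the peaks farther away.

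**Figure D2:**
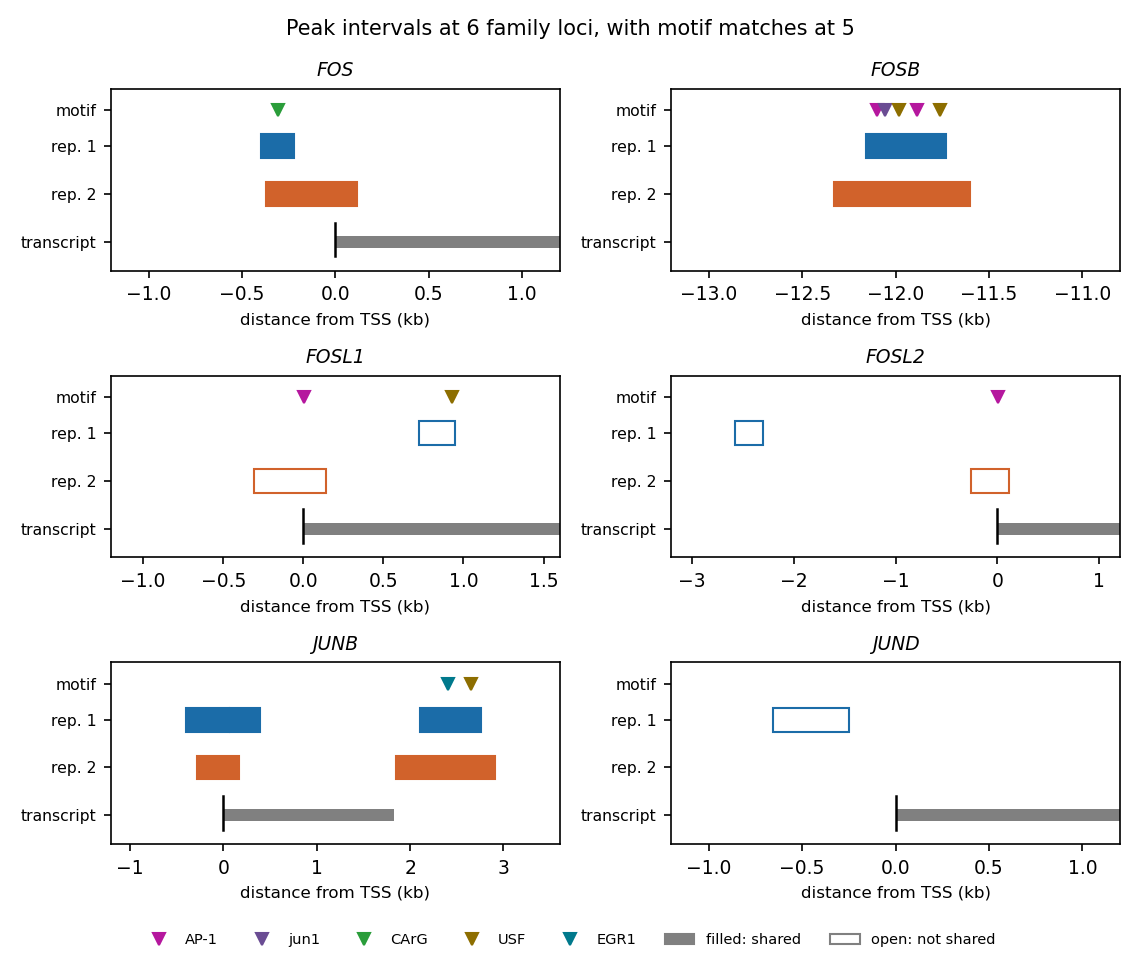
Peak intervals of replicate 1 (blue) and replicate 2 (orange) and motif matches (triangles) at 6 genes, against the distance from the TSS along the gene's strand (kb), with the transcript as a grey bar. Filled bars are shared peaks and open bars are not shared. Peaks of both replicates overlap at FOS, FOSB and JUNB, where the pair of replicate 1 promoter peaks is drawn almost touching, lie apart at FOSL1 and FOSL2, and are present in replicate 1 alone at JUND, whose motif matches were left out and are not reported here.

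JUNB, a JUN relative that often restrains the activity of JUN, had peaks at both ends of its single-exon transcript. At the start, replicate 1 had chr19:12901903-12902361 (460 bp wide, 178 bp upstream, promoter of NM_002229) and chr19:12902376-12902697 (323 bp wide, 226 bp downstream, 5′ UTR). Replicate 2 had 1 peak there, chr19:12902024-12902471 (449 bp wide, 63 bp upstream), which was the partner of both. Its centre lay 115.5 bp from the first and 289 bp from the second, with overlaps of 338 bp and 96 bp. Start-site coverage at JUNB was thus 1 interval in replicate 2 and a pair of adjacent intervals in replicate 1, which is why 5 shared peaks in replicate 1 face 4 in replicate 2 over the whole family.

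The other JUNB region lay at the transcript end and was the widest of the family in both replicates. It covered chr19:12904409-12905063 in replicate 1 (656 bp wide, 88.1st percentile) and chr19:12904155-12905211 in replicate 2 (1058 bp wide, 93.5th percentile). The centres were 2426 bp and 2373 bp downstream of the TSS and 53 bp apart, and the replicate 1 peak lay wholly within that of replicate 2. The deposited annotation called it the transcription termination site of NM_002229, and both peaks began beyond the last base of the transcript.

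The JUNB promoter sequence common to the peaks of both replicates is shown up to the base before the TSS, since it is the shared promoter region of the family with no match of any of the 9 motifs.
JUNB promoter, chr19:12902024-12902299: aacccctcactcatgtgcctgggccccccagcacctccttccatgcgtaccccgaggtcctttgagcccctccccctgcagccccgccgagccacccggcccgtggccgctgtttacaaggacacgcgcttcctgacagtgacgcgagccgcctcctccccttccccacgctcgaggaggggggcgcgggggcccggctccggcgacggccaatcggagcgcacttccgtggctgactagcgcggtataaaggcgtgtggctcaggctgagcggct
The region beyond the transcript end held 1 EGR1 match and 1 USF match, and each is shown with 20 bases to each side.
JUNB downstream region, EGR1 match, chr19:12904686-12904734: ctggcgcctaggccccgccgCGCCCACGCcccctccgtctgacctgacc
JUNB downstream region, USF match, chr19:12904931-12904976: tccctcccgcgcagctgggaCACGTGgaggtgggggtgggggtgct
The EGR1 match, on the minus strand, lay 26 bp from the replicate 1 centre and 27 bp from the replicate 2 centre, and the USF match 217.5 bp and 270.5 bp. An EGR1 match occurred in 4.37% and 4.98% of shared peaks and in 0.439% and 0.563% of the windows beside them. A USF match occurred in 20.2% and 24.7% of shared peaks and in 4.89% and 7.72% of the windows. EGR1 is itself an immediate early transcription factor, and USF proteins are widely expressed E-box factors. No JUNB peak held an AP-1, CRE, jun1 or CArG match.

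The surroundings of JUNB also held peaks with other names. In both replicates, HOOK2, whose protein links cargo to microtubules, had shared regions 8783 bp and 16174 bp upstream of the JUNB TSS by the replicate 1 centres. PRDX2, a peroxide-reducing enzyme, had a replicate 2 peak at its promoter 10406.5 bp downstream. All 5 replicate 1 peaks within 50 kb of JUNB were shared, as were 4 of the 5 replicate 2 peaks.

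JUN, the founding member of the JUN group and the main target of JNK, had no APC peak within 50 kb of its TSS in either replicate. The nearest centre was 99.5 kb away in replicate 1 and 64.9 kb away in replicate 2, where the median over 18749 protein-coding TSSs was 118.2 kb and 95 kb. The region at 99.5 kb was shared. It covered chr1:59348957-59349413 in replicate 1 (458 bp wide) and chr1:59348888-59349399 in replicate 2 (513 bp wide), with centres 41.5 bp apart, and carried the name of the noncoding LINC01135, in whose intron it lay. JUN had the nearest protein-coding TSS. Replicate 2 alone had peaks on either side of it, at chr1:59314375-59314896 (523 bp wide) and chr1:59350966-59351351 (387 bp wide), likewise named LINC01135.

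The AP-1 match of the shared region upstream of JUN is printed with 20 bases to each side because it lay almost at the centre of both peaks, 38 bp and 3.5 bp away. It falls in an exon of the noncoding LINC02777 in GENCODE 44.
JUN distal region, chr1:59349124-59349170: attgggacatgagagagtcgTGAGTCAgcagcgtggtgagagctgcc
The same peaks also held a TCF7L2 match at 59348968, a pairing seen in 16.4% of shared peaks in replicate 1 and 23.1% in replicate 2. Of the replicate 2 peaks beside it, the nearer to JUN held 1 AP-1 and 1 TCF7L2 match. The farther one held 1 CArG match, CCATAAAAGG, 5 bp from its centre, and 2 TCF7L2 matches. TCF7L2 is the DNA-binding partner of β-catenin. TCF7L2 matches were found in 33.4% and 43.5% of shared peaks and in 28.3% and 40.2% of the windows beside them.

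JUND, the JUN relative that resting cells also express, had 0 peaks under its own name but a replicate 1 peak just upstream. The peak, chr19:18392684-18393087, was 405 bp wide and centred 453.5 bp upstream of the JUND start, 2 bp from that of the microRNA gene MIR3188, whose name it carried. The nearest protein-coding TSS was that of JUND. GC content of the peak was 75%, above the list median of 53.25%. Replicate 2 had no peak within 50 kb of the JUND TSS, its nearest centre being 98.7 kb away. Replicate 1 had 2 further peaks within 50 kb, one named MIR3188 at 11291 bp upstream (264 bp wide) and one named KIAA1683 at 6760 bp downstream (496 bp wide), and neither was shared.

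ATF3, a stress-induced relative that pairs with JUN proteins, had 1 peak in replicate 1 and 2 in replicate 2, none of them shared. The replicate 1 peak, chr1:212732437-212732610, was 175 bp wide (14.98th percentile), intergenic and 6153 bp upstream of the TSS to which it was assigned. The replicate 2 peaks were chr1:212686345-212686985 (642 bp wide, intergenic, 52011 bp upstream) and chr1:212769572-212769982 (412 bp wide, intron 1 of NM_001030287, 12193 bp upstream). The deposited distances were taken from different starts of ATF3. From the MANE Select TSS, the centres lay 49579.5 bp, 95438 bp and 12326 bp upstream. The replicate 1 centre was 37253.5 bp from the nearer replicate 2 centre, so ATF3 stood with a peak in both lists without any common location.

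Both replicate 2 peaks of ATF3 held AP-1 matches, 2 in the intergenic peak and 1 in the intronic peak, which are shown with 15 bases to each side.
ATF3 intergenic, first match, chr1:212686569-212686605: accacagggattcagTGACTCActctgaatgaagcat
ATF3 intergenic, second match, chr1:212686834-212686870: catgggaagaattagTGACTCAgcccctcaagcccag
ATF3 intron 1, chr1:212769840-212769876: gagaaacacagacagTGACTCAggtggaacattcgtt
All 3 read TGACTCA on the plus strand and lay 78 bp, 187 bp and 81 bp from the centre of their peak. The intronic peak also held a TCF7L2 match 8 bp from its centre, and its GC content of 38.2% was the lowest of the family. The replicate 1 peak of ATF3 held none of the 9 motifs.

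BATF and BATF3, best known from lymphocytes and dendritic cells, were far from any peak in both replicates. For BATF the nearest centre was 138.5 kb away in both replicates, and 53.7% of protein-coding TSSs in replicate 1 and 59.1% in replicate 2 had a peak at least as near. For BATF3 it was 92.1 kb and 91.9 kb away, and 44.3% and 49.3% of TSSs had one as near. Both genes thus stood near the middle of all genes in their distance to a peak. JUN compared similarly, at 46% and 41.8%.

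The other genes had closer peaks than most, apart from JUND in replicate 2. At most 19.6% of protein-coding TSSs had a peak as near as FOS, FOSB, FOSL1, FOSL2 or JUNB in either replicate, from 7.85% for JUNB to 12.8% for FOSL2 in replicate 1 and from 3.71% for JUNB to 19.6% for FOSB in replicate 2. For JUND the share was 10.9% in replicate 1 and 51% in replicate 2, the widest gap of the family. For ATF3 it was 32.3% and 19.9%.

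**Figure D3:**
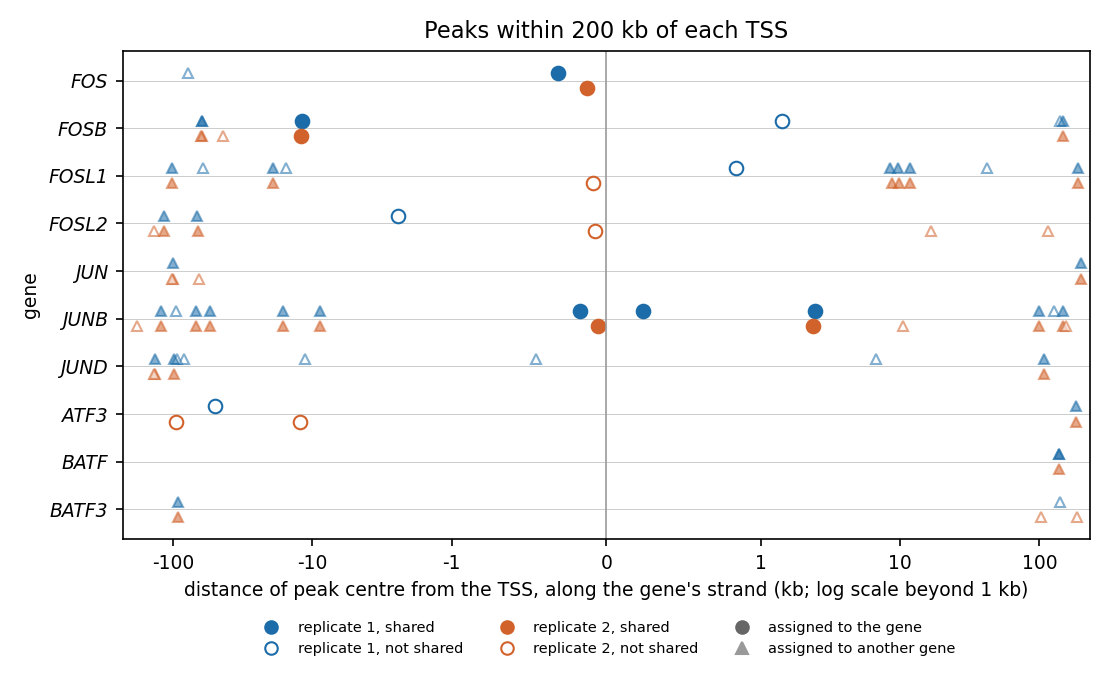
Distance of each peak centre within 200 kb from the TSS of the 10 genes, along the gene's strand (kb, log scale beyond 1 kb), with replicate 1 in blue above and replicate 2 in orange below. Circles are peaks assigned to the gene, triangles are peaks with another name, filled symbols are shared and open symbols are not. FOS and JUNB have filled circles by the TSS, and JUN, BATF and BATF3 have no symbol within 50 kb.

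Counted by position, 20 replicate 1 peaks and 16 replicate 2 peaks lay within 50 kb of a TSS of the family. Of the replicate 1 peaks, 9 carried the name of the gene and 11 another name, and 11 were shared. Of the replicate 2 peaks, 7 carried the name of the gene and 9 another, and 10 were shared. A count by name therefore covered less than the peaks nearby. FOSL1 had the most with other names, 6 in replicate 1 and 4 in replicate 2. They were shared regions at FIBP, CCDC85B, which had 2, and DRAP1, together with replicate 1 peaks at CFL1 and C11orf68. Shared regions in that stretch thus lay on both sides of FOSL1, whose own peaks were not shared.

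Peak width, the only size that the lists give, differed between replicates for nearly every shared region of the family. Replicate 2 peaks were wider in FOS (ratio 2.709), FOSB (1.698), the JUNB transcript end (1.613) and the second JUNB promoter peak (1.39), and about equal in the first JUNB promoter peak (0.9761). The median ratio over all shared regions was 1.508, and the median width of all peaks was 371 bp in replicate 1 and 532 bp in replicate 2. The shared region of FOS thus had the largest ratio of the family. Width depends on depth and threshold as well as on enrichment, and it is not read here as strength.

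**Figure D4:**
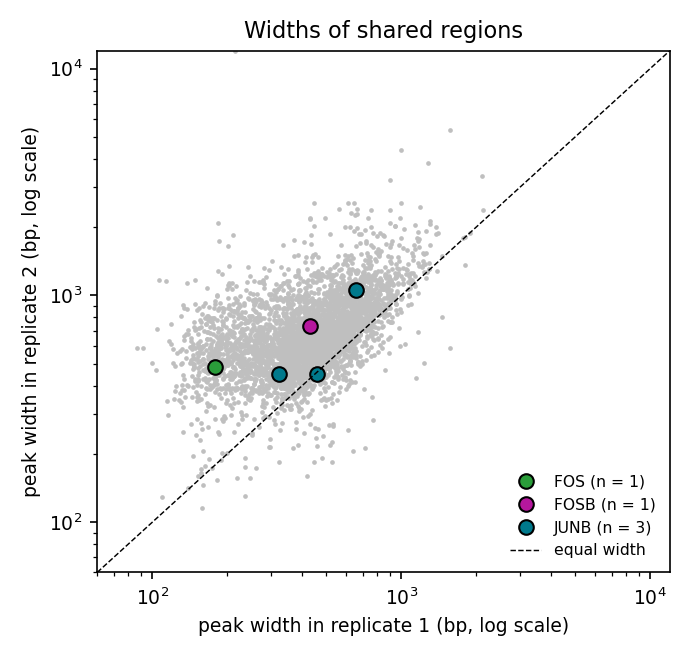
Width of each shared region in replicate 1 (horizontal axis, bp, log scale) against replicate 2 (vertical axis, bp, log scale), with all shared regions in grey, the 5 pairs of FOS, FOSB and JUNB in color and the line of equal width dashed. All pairs but 1 at JUNB lie above the line, and the JUNB transcript end, at 656 bp and 1058 bp, is the widest of the 5.

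Widths of shared and unshared peaks of the family overlapped in both replicates. The 4 unshared replicate 1 peaks were between 144 bp and 277 bp wide, and none reached the list median of 371 bp. The 5 shared ones ran from 179 bp, at FOS, to 656 bp, and 3 exceeded it. In replicate 2 the 4 unshared peaks ran from 375 bp to 642 bp and the 4 shared ones from 449 bp to 1058 bp. Over all peaks, unshared ones were also narrower, with medians of 238 bp against 432.5 bp in replicate 1 and 432 bp against 644 bp in replicate 2.

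The share of the family's peaks that were shared was close to that of the whole lists. It was 5 of 9 in replicate 1 (55.6%, exact Clopper-Pearson 95% interval 21.2% to 86.3%) beside 63.6% of all peaks. It was 4 of 8 in replicate 2 (50%, 15.7% to 84.3%) beside 45.5%. These intervals and those that follow cover counting error only, and peaks of 1 gene are not independent of each other.

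The family's peaks lay near a TSS more often than not. Within 5 kb of the assigned TSS were 7 of 9 replicate 1 peaks (77.8%, interval 40% to 97.2%) beside 45.2% of all peaks. In replicate 2 there were 5 of 8 (62.5%, 24.5% to 91.5%) beside 37.7%. Of the shared peaks, 4 of 5 in replicate 1 (80%, 28.4% to 99.5%) and 3 of 4 in replicate 2 (75%, 19.4% to 99.4%) were that near, beside 44.4% of all shared peaks in each list. Every interval reached down to the share of the whole list, so a difference from it was not detectable with so few peaks.

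AP-1 matches (TGACTCA or its reverse complement TGAGTCA, searched on both strands) were few in the shared regions of the genes that encode AP-1. They were found in 1 of 5 shared peaks in replicate 1 (20%, interval 0.505% to 71.6%) and 1 of 4 in replicate 2 (25%, 0.631% to 80.6%), in each case the FOSB upstream region. Over all shared peaks the share was 32.9% and 38.5%, and in the windows beside them 7.88% and 11.6%. The intervals contain both, so neither a lower nor a higher share than in other shared peaks was detectable. Of all shared peaks up to 1 kb from a TSS, 5.97% and 7.88% had a match, against 48.7% and 56.4% of those farther away.

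The peaks of 1 replicate split by replicate. AP-1 matches were present in all 4 unshared replicate 2 peaks, those of FOSL1, FOSL2 and ATF3, and in 0 of the 4 unshared replicate 1 peaks, those of FOSB, FOSL1, FOSL2 and ATF3. With the shared peaks, 5 of 8 replicate 2 peaks (62.5%, 24.5% to 91.5%) and 1 of 9 replicate 1 peaks (11.1%, 0.281% to 48.2%) had a match, beside 32.1% and 25.2% of all peaks. No share over all unshared peaks is given here, so the split of the unshared peaks has no background beside it. The unshared replicate 2 peaks were also the wider ones, 375 bp to 642 bp against 144 bp to 277 bp, and the part of width in the split was not tested.

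Of the other motifs, USF had the most matches in the family. The CRE (TGACGTCA), through which CREB and ATF proteins bind, had 0 matches, beside 2.38% and 2.93% of all shared peaks. SP1 and NRF1 had 0 matches in peaks with a family name. USF had matches in 3 replicate 1 peaks, at FOSB, FOSL1 and JUNB, and in 2 replicate 2 peaks, at FOSB and JUNB. These were 3 of 9 and 2 of 8 peaks, beside 16.6% and 18% of all peaks, and the difference was not tested. TCF7L2 (NNCAAAG, where each N is A or T) had a match in 0 of 9 replicate 1 peaks and in 1 of 8 replicate 2 peaks, that in the ATF3 intron, beside 27.8% and 36.8% of all peaks. EGR1 was searched as GCGGGGGCG or GCGTGGGCG, and the CArG box, SP1 and NRF1 motifs by their usual consensus. No match says only that these letters are absent from the interval.

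**Figure D5:**
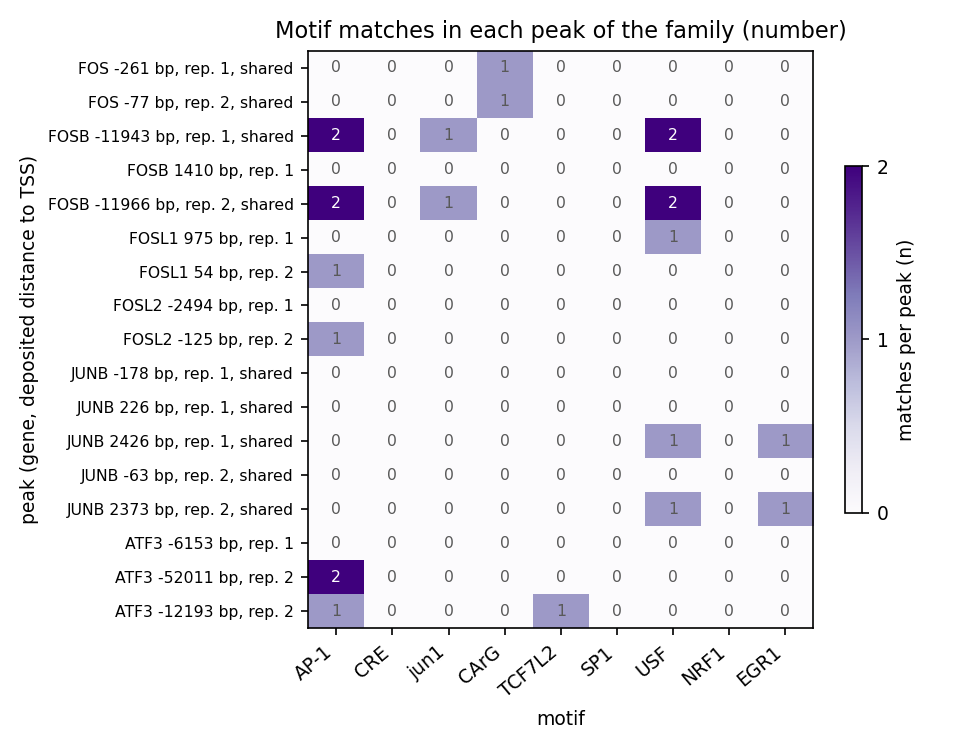
Number of matches (color and printed count) of 9 motifs (columns) in each peak assigned to the family (rows, labelled with gene, deposited distance to the TSS in bp, replicate and sharing). AP-1 matches lie in the FOSB upstream peaks and in the replicate 2 peaks of FOSL1, FOSL2 and ATF3, and the promoter peaks of JUNB hold no match.

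Genes around the family in the pathway were counted in the same way. Of 29 partner genes, which encode other leucine zipper proteins such as the ATF, MAF, NFE2 and CEBP groups, 2 had a shared region (6.9%). They were BACH2, a repressor that pairs with small MAF proteins, with 1 region 78215 bp into the gene (314 bp and 683 bp wide, with 2 AP-1 matches), and ATF6, a sensor of endoplasmic reticulum stress, with 1 at the promoter (202 bp and 524 bp wide). The share over all protein-coding genes was 11.4%, so that of the partners was not above the background.

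Of 31 genes upstream of AP-1, 7 had a shared region (22.6%, beside 11.4% of all protein-coding genes). The listed genes mostly encode MAP kinases, their activators and the transcription factors that they act on, and some encode ubiquitin ligases. MAP2K4 and MAP2K7 are the kinases that activate JNK. MAP2K4 had 3 regions, each with an AP-1 match, the widest 19871 bp into the gene (472 bp and 373 bp wide). MEF2D, a transcription factor that acts on JUN, had 2, and MAP2K7 had 1 at its promoter, 98 bp upstream of the TSS (628 bp and 710 bp wide).

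Of 27 genes known to be controlled by AP-1, 7 had a shared region (25.9%, beside the same 11.4%). LIF, a cytokine of the interleukin 6 family, had 6, of which 4 held an AP-1 match, the widest 36335 bp from the TSS (970 bp and 1134 bp wide). KRT18, an epithelial keratin, had 2, the nearer 2505 bp upstream (282 bp and 1078 bp wide). The 3 lists were compared with no null, and the genes differ in how much sequence is assigned to them.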

How the data were processed

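APC ChIP-seq and input libraries of HCT-116 cells were single-end. Per the methods of the study, the authors aligned reads to hg19 with BWA, called peaks with MACS2 separately for the replicates, each with its matched input, adjusted the score threshold, and annotated peaks with RefGene. For BWA and MACS2, the version is not given in the sources used here. Both lists were deposited by the authors as positions, widths and distances in bp, with 6263 and 8393 peaks, beside a table of distances between replicate centres. The inputs enter only through the peak calling.

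Peaks were compared with Python 3.11.15, pandas 2.3.3, NumPy 2.4.6 and SciPy 1.17.1, and drawn with matplotlib 3.10.9. Genes were the deposited names, matched to RefSeq symbols (4913 of 5028 protein-coding names, 97.7%). Of 9 names in replicate 2 that a spreadsheet had turned into dates, 8 were restored. The background was 19101 protein-coding genes found in RefSeq and in GENCODE 44 on GRCh37, the build of the lists. No peak passed a chromosome end (0). Centres under 400 bp apart were shared. The study defined sharing by summits, but summits were not used here. Distances to peaks with other names, and nearest-peak distances, were measured from MANE Select TSSs. The nearest protein-coding TSS was sought among the starts of all protein-coding transcripts in GENCODE 44.

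Consensus motifs were matched exactly on both strands of the reference sequence. Pairing and motif search were tested on simulated data, and the assignment of peaks to genes was not. Shares had exact Clopper-Pearson 95% intervals, and nothing else was tested, since each list is 1 library. The members and lists were chosen with earlier results of these data known. All 10 members, genes named on peaks within 50 kb of a member TSS, and the 3 genes with the most shared regions in each of 3 lists (ties by width) were named, except 1 gene that is not reported here. Alternatives were other sharing rules, the wider 50% of each list, 10 kb, nearest protein-coding TSS, other windows and each replicate alone.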

Additional observations from a re-analysis of the deposited data

How the results depend on the processing

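Of 74 alternative values, 53 stayed within 1.5 times the reported value, or within its interval for a share, and 21 moved. The intervals of the shares were so wide that large changes stayed within them. The AP-1 share of 20% counted as unmoved at 50% in the wider 50% of each list. It also did so at 11.1% with replicate 1 alone and 62.5% with replicate 2 alone. FOS, FOSB and JUNB had a shared region at limits of 200 bp and 400 bp and by any overlap, with FOSL1 added at 1000 bp. The share of all protein-coding genes was 10.8%, 11.4% and 11.5% at the first settings and 11.6% at 1000 bp. With the wider 50% of each list, 2 shared regions were left (FOSB and JUNB), as were 3 member peaks in replicate 1 and 3 in replicate 2. The genes with a shared region fell to 0 of 29 partners, 3 of 31 upstream genes and 4 of 27 targets. The share of all protein-coding genes fell as well, from 11.4% to 6.43%. Within 10 kb of the TSS, 2 members with 4 shared regions were left, FOSB dropping out. Also left were 5 replicate 2 member peaks, 1 partner and 4 upstream genes. No share of all genes is given here for this limit, so these falls cannot be set against the background. By the nearest protein-coding TSS, FOS, FOSL2, JUN and JUNB had shared regions, beside 13.4% of all protein-coding genes. FOSB then lost its region to an ERCC1 transcript start other than the deposited promoter, and replicate 2 had 14 member peaks. With each replicate alone, members with a peak numbered 6 in both cases, regions 8 to 9, partners 5 to 8 and upstream genes 10 to 12. Of all protein-coding genes, 17.1% had a replicate 1 peak and 20.6% a replicate 2 peak. Peaks near a member TSS numbered 12 and 8 within 10 kb and 47 and 43 within 200 kb. Unknown depth limits every peak of 1 replicate: a missing peak does not show that APC was absent. No paired analysis was possible because each list was already called against its own input, no input values were analysed here, and no result came from a test.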
